A study of Rattus norvegicus with 4 samples.

Results

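Cartpt-positive lactotrophs were a minority of the prolactin cells of the female rat pituitary that carried messenger RNA of Cartpt, the precursor gene of CART (cocaine- and amphetamine-regulated transcript) peptides. They were chosen by measured values: a barcode had to hold at least 20% Prl, under 5% Gh1, under 5% Pomc and at least 0.03% Cartpt among its unique molecular identifiers (UMIs). By this rule 509 barcodes were Cartpt-positive, of 6495 Prl-high barcodes and 20381 barcodes kept in all. The other 5986 Prl-high barcodes, below the Cartpt limit, are called Cartpt-low here and were the cells of comparison. The glands came from female Sprague Dawley rats aged 75 days that were cycling at random stages, with no treatment or genetic change named in the labels. Pools of 30 glands were dispersed with trypsin and EDTA in each of 2 preparations. In the dissected preparation the anterior and the posterior lobes of 30 glands gave 1 library each, and in the whole-gland preparation 1 suspension of 30 glands was loaded on 2 lanes. The lanes are repeats of 1 suspension and both lobes came from the same glands, so the 2 preparations were the replicates (n = 2) and single cells were not. Pooling leaves differences between animals unmeasured.

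Lactotrophs make and store prolactin in dense-core granules and release it by regulated exocytosis. Dopamine from the hypothalamus holds this release down through the receptor Drd2, and estrogen raises prolactin production. CART peptides are neuropeptides of the hypothalamus and other brain regions that are cut from a precursor inside dense-core granules. The granins, among them Chgb, Chga, Scg2 and Vgf, are acidic granule proteins that help to load such granules, and several are themselves cut into peptides. Cyclic AMP acts on many neuropeptide and granin genes through the transcription factor CREB, which binds the palindrome TGACGTCA.

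Cartpt, which defined the cells, and Vgf and Scg2, both higher in them, share this palindrome upstream of their starts, and their RefSeq promoters (assembly GRCr8) are shown for that reason. Each run below covers the 250 bases before the annotated start, 5′ to 3′ on the gene's own strand, with the palindrome in capitals. The windows were chr2:32991236-32991485 for Cartpt, chr12:25277021-25277270 for Vgf and chr9:88256867-88257116 for Scg2, all on the minus strand.
Cartpt: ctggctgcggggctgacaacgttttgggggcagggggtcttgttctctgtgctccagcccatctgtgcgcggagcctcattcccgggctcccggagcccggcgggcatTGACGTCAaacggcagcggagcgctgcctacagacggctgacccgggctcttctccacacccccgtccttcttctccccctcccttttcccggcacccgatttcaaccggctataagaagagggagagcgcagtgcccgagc
Vgf: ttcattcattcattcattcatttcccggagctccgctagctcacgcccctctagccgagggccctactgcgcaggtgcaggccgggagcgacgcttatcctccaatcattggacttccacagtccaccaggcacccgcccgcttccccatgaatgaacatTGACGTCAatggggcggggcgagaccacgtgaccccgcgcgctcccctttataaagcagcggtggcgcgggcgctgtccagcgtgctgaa
Scg2: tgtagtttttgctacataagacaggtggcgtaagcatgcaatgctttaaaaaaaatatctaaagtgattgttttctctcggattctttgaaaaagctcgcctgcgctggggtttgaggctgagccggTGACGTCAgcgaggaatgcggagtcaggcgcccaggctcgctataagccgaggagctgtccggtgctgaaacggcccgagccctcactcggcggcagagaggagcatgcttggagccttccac
The palindrome lay 142 to 135 bases upstream of the start in Cartpt, 90 to 83 bases in Vgf and 123 to 116 bases in Scg2. Because TGACGTCA reads the same on both strands, a single search covered both. It was present in 531 of 33469 RefSeq promoter windows of this length (1.59%). Of 18 genes higher in Cartpt-positive cells that were searched, Cartpt included, 14 had a window and 3 held the palindrome; of the 12 genes with the largest falls, 8 had a window and 1 held it. The genes searched were chosen after their values were seen and include the 3 shown, so no enrichment is read from these counts. A match describes the letters in the window and does not show binding.

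The 4 libraries held between 61981865 and 72754998 UMIs in 7424 to 8550 barcodes, and 3936 to 5714 barcodes per library were kept. Cartpt-positive and Cartpt-low cells were sequenced alike, with medians of 16741 and 16664.5 UMIs per cell. Mitochondrial UMIs made up a median of 6.07% in Cartpt-positive cells and 5.51% in Cartpt-low cells. A doublet score above 0.25 was given to 18 Cartpt-positive cells (3.54%) and 181 Cartpt-low cells (3.02%), which were kept in the main comparison. Across libraries, 35 barcode sequences occurred in more than 1 library among kept barcodes. Among the Cartpt-positive barcodes taken alone, 0 sequences occurred in more than 1 library. Whether a Cartpt-positive barcode shared its sequence with another kept barcode was not examined.

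Cartpt was concentrated in few cells and abundant there. The median Cartpt-positive cell held 48 Cartpt UMIs, or 0.309% of its UMIs, and the highest cell held 7.92%. At least 10 Cartpt UMIs were found in 436 of the 509 cells (85.7%), while 11 cells rested on fewer than 3. Among Cartpt-low cells, 5505 of 5986 (92.0%) had no Cartpt UMI at all. The 509 cells held 98.6% of the Cartpt UMIs of Prl-high cells and 93.0% of those of all kept cells. Summed over cells, Cartpt stood at 5211, 8762, 6821 and 7358 CPM (UMIs scaled to a common total) in Cartpt-positive cells of the anterior, posterior, whole-gland lane 1 and whole-gland lane 2 libraries, against 8.01, 12.3, 7.99 and 7.47 CPM in Cartpt-low cells. Every list of 4 values below follows this order of libraries, and every level is in CPM of summed UMIs. These Cartpt values follow from the rule and were not tested.

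Cartpt-positive cells were found in all 4 libraries and formed a larger share of Prl-high cells in the dissected than in the whole glands. They were 234 of 2355 Prl-high cells in the anterior library (9.94%, exact Clopper-Pearson 95% interval 8.76 to 11.2) and 66 of 488 in the posterior library (13.5%, 10.6 to 16.9). In the whole-gland lanes they were 115 of 1945 (5.91%, 4.91 to 7.05) and 94 of 1707 (5.51%, 4.47 to 6.70). The intervals cover counting error only. With 1 dissected and 1 whole-gland preparation, the difference between them cannot be told apart from a difference between pools of animals or dispersals. The library labelled posterior held 488 Prl-high cells, a cell type of the anterior lobe, and they were deeper, with medians of 26721.5 UMIs in Cartpt-positive cells and 27071 in Cartpt-low cells. With each cell thinned to 5000 UMIs and all limits applied again, the shares were 9.45%, 13.4%, 5.58% and 5.53%.

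**Figure D1:**
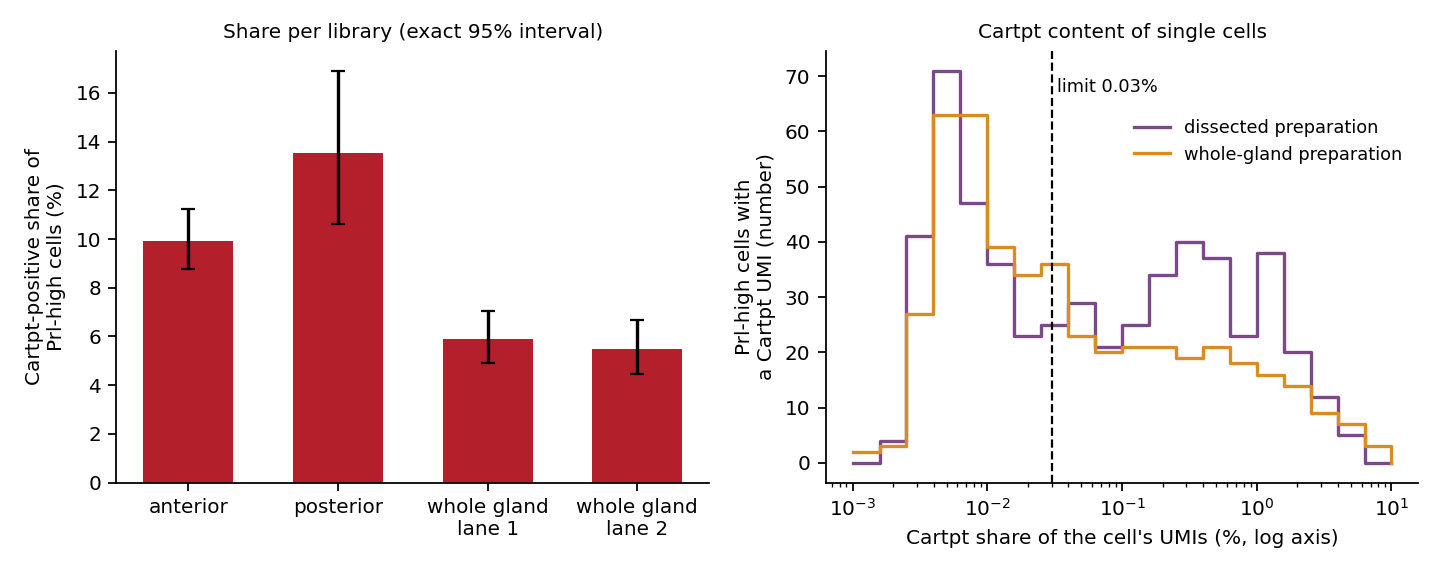
Left, Cartpt-positive cells as a percentage of Prl-high cells in each library, with exact 95% intervals as bars; right, number of Prl-high cells with at least 1 Cartpt UMI by their Cartpt share (log axis), for each preparation, with the limit of 0.03% dashed. The shares were 9.94% and 13.5% in the dissected libraries and 5.91% and 5.51% in the whole-gland lanes, and cells above the limit spread over a range that reached 7.92%.

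The lactotroph label was checked against its defining genes, Prl, Pou1f1, Drd2 and Esr1. Of these, Esr1 was called lower, though not in every setting, and its values are given with the hormone receptors. Prl took a median of 46.7% of UMIs in Cartpt-positive cells and 48.8% in Cartpt-low cells, both set in part by the rule. Pou1f1 had 282, 421, 332 and 369.6 CPM in Cartpt-positive cells, against 368, 421, 446 and 445 CPM in Cartpt-low cells; this gene encodes the factor that specifies prolactin, growth hormone and thyrotropin cells. Drd2 had 29.6, 21.1, 21.6 and 26.8 CPM in Cartpt-positive cells, against 39.3, 37.9, 34.3 and 33.9 CPM in Cartpt-low cells. Their log2 fold changes, Cartpt-positive over Cartpt-low, were -0.22 and -0.45, under the size of 0.5 that a call needed. The 4 Drd2 values of Cartpt-positive cells were all below those of Cartpt-low cells, and Drd2 was called lower without the anterior library (-0.59), without whole-gland lane 2 (-0.52) and with no filter on low counts (-0.51). Outside Prl-high cells, Cartpt at the limit was met by 6 of 4059 Gh1-high cells (0.148%), 2 of 1605 Pomc-high cells (0.125%) and 11 of 3399 hormone-poor S100b-positive cells (0.324%). It was met by 8 of 507 cells high in Lhb and Fshb (1.58%) and by 4 of 102 Tshb-high cells (3.92%). Of 119 cells high in both Prl and Gh1, which the rule leaves out, 6 met it (5.04%, exact 95% interval 1.87 to 10.7), and this interval includes the 7.84% of Prl-high cells. A Cartpt UMI of any kind was found in 15.2% of Prl-high cells (median 16668 UMIs), 3.87% of Gh1-high cells (median 10301) and 3.35% of hormone-poor S100b-positive cells (median 6248); it was found in 481 of 5986 Cartpt-low cells. Depth differed between these cell types, so no order is read from these shares.

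The limit cut a continuous range. The 33 cells just inside it (0.03 to 0.04% Cartpt) had 297.5 CPM of Vgf, 204.7 CPM of Dcn, 8622 CPM of Chgb and 62.5 CPM of Spock1. The 56 cells just outside it (0.02 to 0.03%) had 203 CPM of Vgf, 104 CPM of Dcn, 7581 CPM of Chgb and 50.9 CPM of Spock1. Olfm1 went the other way, with 637 CPM just inside and 764 CPM just outside. Cells on either side of the limit thus differed less than the states as a whole.

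Across all genes, the UMIs of each state were summed per preparation, and edgeR's quasi-likelihood test with preparation as a block compared the states. Calls needed an adjusted p (Benjamini-Hochberg) under 0.05 together with a log2 fold change, Cartpt-positive over Cartpt-low, of at least 0.5 in size; "rose" and "fell" are used of called genes. Of 14290 genes tested, 453 were higher (3.17%) and 414 lower (2.9%), 6.07% in either direction, and the median over all genes was -0.01. Counts of list members called, given below, are to be read beside these shares. The direction was the same in all 4 libraries for 785 of the 867 called genes. The size was at least 1 on the log2 scale for 275 of the higher genes and for 188 of the lower. Leaving out the anterior library left 283 higher and 217 lower genes, and leaving out the posterior library left 288 and 232. DESeq2 called 225 higher and 128 lower. Cartpt, Prl, Gh1 and Pomc were used by the rule and stay out of these counts; the states were set by Cartpt in the same cells, so the test says how other genes differ between cells split in this way.

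The 4 markers under which these cells were described all rose, and 6 of 19 granule proteins tested were called higher, Vgf and Chgb among them. Of the 4 genes proposed as markers beside Cartpt, 4 were called higher, against the 3.17% called higher among all genes; they had been chosen from these data, so this count is a description. Vgf had 359, 363, 454 and 411 CPM in Cartpt-positive cells, against 52.01, 83.6, 42.7 and 39.9 CPM in Cartpt-low cells. The states did not overlap, as was the case for 16.6% of all genes tested, and Vgf had a log2 fold change of 3.06 (SE 0.13, adjusted p = 3.24e-10). Chgb had 11134, 11049, 11404 and 11756 CPM in Cartpt-positive cells, against 4822, 4938, 4933 and 4971 CPM in Cartpt-low cells, which made it the most abundant of the markers; it rose by 1.28 (SE 0.03, adjusted p = 7.84e-13). Spock1 had 108, 149.9, 138 and 152 CPM in Cartpt-positive cells, against 12.97, 16.1, 12.8 and 12.9 CPM in Cartpt-low cells, and this proteoglycan of the testican family rose by 3.39 (SE 0.10, adjusted p = 2.27e-12). Olfm1 had 949, 1273, 807 and 885 CPM in Cartpt-positive cells, against 479, 652, 506 and 499 CPM in Cartpt-low cells; Olfm1, a secreted olfactomedin of neurons, rose by 0.95 (SE 0.06, adjusted p = 6.30e-08). Averaged over preparations, Vgf stood at 397 ± 51.7 CPM in Cartpt-positive cells and 50.5 ± 12.99 CPM in Cartpt-low cells (SD, n = 2).

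Among the other granins, Chga and Scg2 rose as well. Scg2 had 3616, 4811, 4710.2 and 4511 CPM in Cartpt-positive cells, against 2083, 2520.0, 2658 and 2630.1 CPM in Cartpt-low cells, a rise of 0.90 (SE 0.04, adjusted p = 4.52e-10). Chga had 435, 466, 376 and 427 CPM in Cartpt-positive cells, against 217, 176, 208 and 205 CPM in Cartpt-low cells, a rise of 1.10 (SE 0.07, adjusted p = 1.84e-08). The values of the states did not overlap for either gene. In the list of granins and granule proteins, 6 of 19 tested members were higher and 1 lower, with a median log2 fold change of 0.23 beside -0.01 over all genes; DESeq2 called 4. Resp18, a granule protein at 2865 ± 38.6 CPM in Cartpt-positive cells (SD, n = 2), had a fold change of 0.27 and was not called. The smaller rises were those of Rab3a, a GTPase of secretory vesicles (0.51), and Ptprn2, a granule membrane protein (0.51); both lost their call with DESeq2, where the fold changes were 0.53 and 0.53. Cadps2, a priming factor for granule release, fell by 0.73, at 3.98 to 6.86 CPM in Cartpt-positive cells and 6.91 to 11.3 CPM in Cartpt-low cells, and this call was lost with DESeq2, without the block and without the anterior library, among other settings. The summed level of the list was 20998 to 22711 CPM in Cartpt-positive cells and 12274 to 13145 CPM in Cartpt-low cells, and in Cartpt-positive cells Chgb alone made up most of it.

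The largest rises outside the marker list included a neuronal protein and membrane transporters. Nrgn had 57.9, 85.5, 67.7 and 88.5 CPM in Cartpt-positive cells, against 1.30, 0.818, 1.41 and 0.975 CPM in Cartpt-low cells, the largest rise of a named gene. Nrgn encodes neurogranin, a calmodulin-binding protein of neuronal dendrites, and rose by 5.99 (SE 0.12, adjusted p = 3.71e-14). Slc6a14 had 51.8, 66.6, 43.3 and 64.2 CPM in Cartpt-positive cells, against 5.33, 7.46, 4.67 and 3.03 CPM in Cartpt-low cells; this transporter of neutral and cationic amino acids rose by 3.56 (SE 0.13, adjusted p = 2.25e-11). Pon2 had 321, 436, 326 and 418 CPM in Cartpt-positive cells, against 35.8, 42.8, 31.9 and 31.2 CPM in Cartpt-low cells, and this intracellular lactonase of the paraoxonase family rose by 3.47 (SE 0.08, adjusted p = 3.27e-13). Slc16a4, of the monocarboxylate transporter family, stood at 52.9 to 88.5 CPM in Cartpt-positive cells and 6.91 to 10.8 CPM in Cartpt-low cells. Arhgap36, which restrains protein kinase A, stood at 54.2 to 59.2 CPM in Cartpt-positive cells and 6.35 to 7.64 CPM in Cartpt-low cells. Their log2 fold changes were 3.16 and 3.11. The gene listed as LOC100910996, which the reference does not annotate further, was at 422 to 553 CPM in Cartpt-positive cells and 49.02 to 90.5 CPM in Cartpt-low cells, a log2 fold change of 3.05.

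Secreted and surface proteins followed with smaller rises. Ptn had 149, 192, 164 and 168 CPM in Cartpt-positive cells, against 39.7, 51.1, 40.6 and 33.2 CPM in Cartpt-low cells; pleiotrophin, a heparin-binding growth factor, rose by 2.11 (SE 0.08, adjusted p = 1.08e-10). Timp1 had 296, 277, 339.9 and 308 CPM in Cartpt-positive cells, against 97.9, 88.6, 82.7 and 73.4 CPM in Cartpt-low cells, and this inhibitor of matrix metalloproteinases rose by 1.89 (SE 0.09, adjusted p = 1.58e-09). Thy1 had 127, 202, 131 and 129.6 CPM in Cartpt-positive cells, against 37.1, 47.00, 35.3 and 34.7 CPM in Cartpt-low cells; this glycolipid-anchored surface protein rose by 1.98 (SE 0.08, adjusted p = 1.15e-10). Chst2, a sulfotransferase of cell-surface sugars, stood at 43.3 to 52.97 CPM in Cartpt-positive cells and 15.8 to 18.2 CPM in Cartpt-low cells, with a log2 fold change of 1.67. No value of these 4 genes in a Cartpt-positive library reached down to the Cartpt-low values.

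**Figure D2:**
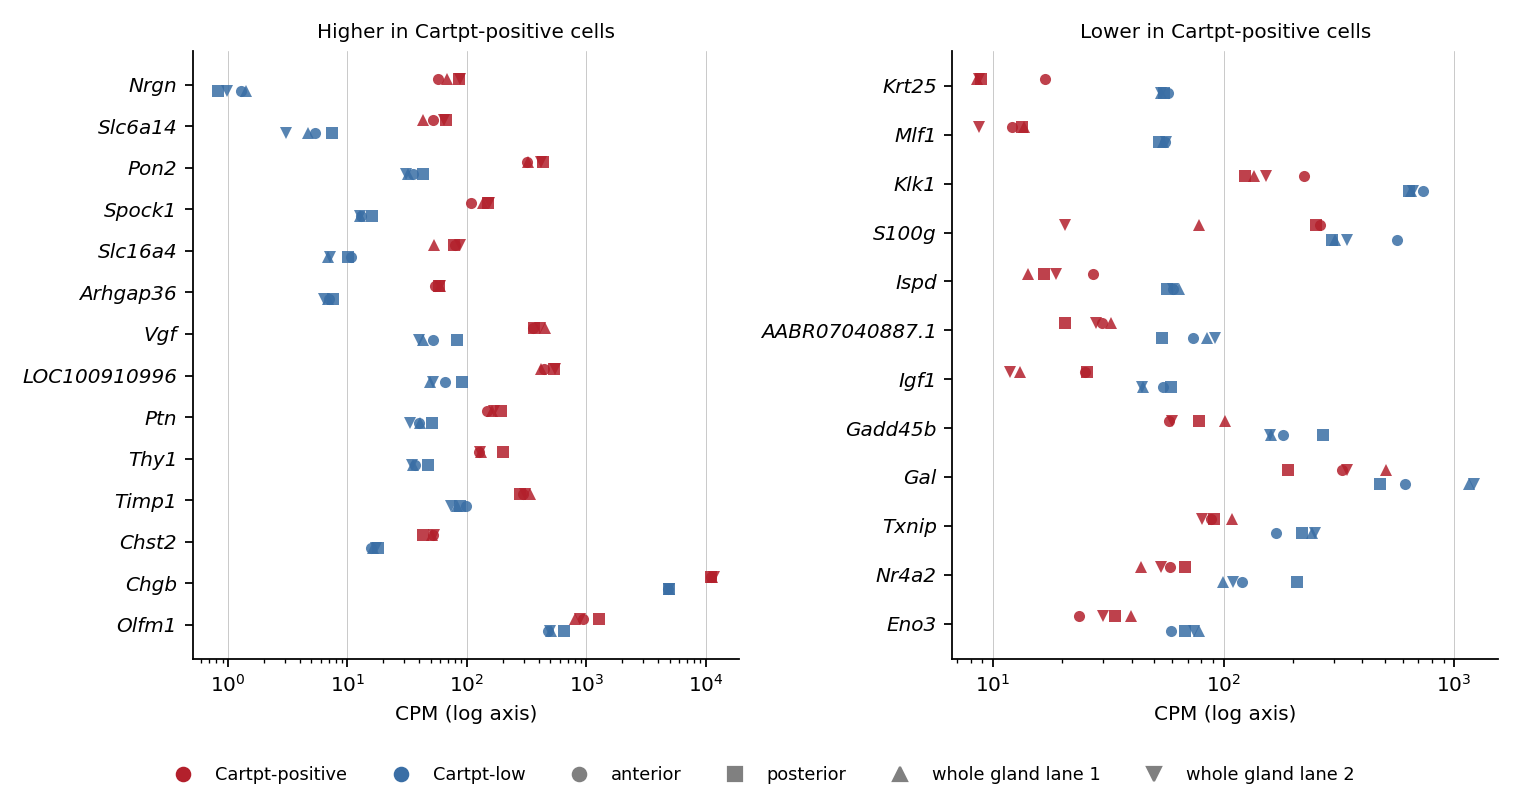
CPM (log axis) of the named genes in each library, with Cartpt-positive cells in red above Cartpt-low cells in blue and 1 marker shape per library; left, genes higher in Cartpt-positive cells, right, genes lower. The 4 red points lie clear of the 4 blue ones for every gene except Gal, where the highest red value (508 CPM) exceeds the lowest blue value (479 CPM).

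Among enzymes that cut and trim prohormones, Pcsk2, Pcsk5 and Ctsl rose, and Pcsk6 and Cpz fell. Pcsk2 had 15.2, 23.9, 25.6 and 29.3 CPM in Cartpt-positive cells, against 2.42, 5.09, 3.01 and 2.71 CPM in Cartpt-low cells; this prohormone convertase, which acts in neuroendocrine granules, rose by 2.97 (SE 0.20, adjusted p = 6.30e-08). Pcsk2 was seen in 24.6% of Cartpt-positive cells and 4.04% of Cartpt-low cells. Ctsl had 642, 718, 729 and 930.5 CPM in Cartpt-positive cells, against 299, 316, 316 and 319.9 CPM in Cartpt-low cells, and cathepsin L, a lysosomal protease also found in granules, rose by 1.32 (SE 0.06, adjusted p = 1.58e-09). Pcsk5 had 3.33 to 5.61 CPM in Cartpt-positive cells and 1.09 to 2.49 CPM in Cartpt-low cells and was called higher, but not with DESeq2. Pcsk6 had 40.8, 25.5, 31.3 and 29.3 CPM in Cartpt-positive cells, against 75.4, 55.6, 57.7 and 57.6 CPM in Cartpt-low cells; this convertase fell by 0.89, and Cpz, a carboxypeptidase, fell by 1.32. In all, 3 of 14 tested processing genes were higher and 2 lower, beside 3.17% and 2.9% of all genes, with a median of -0.02. Of the most abundant, Cpe, the carboxypeptidase that trims granule peptides, and Pam, which amidates them, had fold changes of 0.05 and 0.37 and were not called.

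Other neuropeptide genes moved in both directions. Gal had 326, 190.4, 508 and 343 CPM in Cartpt-positive cells, against 613, 479, 1156 and 1214 CPM in Cartpt-low cells; galanin is a peptide that rat lactotrophs are known to make, and it fell by 1.18 (SE 0.08, adjusted p = 6.27e-08). The ranges overlapped between preparations, since both states had more Gal in the whole glands, but the value was lower in Cartpt-positive cells within each of the 4 libraries. Nmu, the gene of neuromedin U, rose by 1.99, with 3.89 to 22.2 CPM in Cartpt-positive cells and 1.99 to 3.18 CPM in Cartpt-low cells. Pdyn, the prodynorphin gene, stayed at or below 5.55 CPM in Cartpt-positive cells and 1.89 CPM in Cartpt-low cells; its rise of 1.42 lost its call with DESeq2 and without the posterior library or whole-gland lane 1. Vip was at 0, 0, 0 and 0.623 CPM in Cartpt-positive cells, against 0.825, 0.818, 2.49 and 5.16 CPM in Cartpt-low cells; its lower call was lost with DESeq2 and without the block. Of 16 neuropeptide and local hormone genes tested, 2 were higher and 2 lower, beside 3.17% and 2.9% of all genes, and DESeq2 called 2. The abundant Scg5, a chaperone of Pcsk2, and Nucb2, the precursor of nesfatin, had fold changes of 0.00 and 0.09 and were not called.

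Some genes of neurons and of the extracellular matrix rose. In the list of neuronal cytoskeleton and outgrowth genes, 4 of 24 were higher and 1 lower, and the median was 0.39; DESeq2 called 3. Besides Olfm1 these were Nsg1, a protein of neuronal endosomes (0.58), and the RNA-binding proteins Celf4 (1.55) and Elavl4 (0.71); the last lost its call with DESeq2 and without the anterior library. In the list of proteoglycans and secreted matrix proteins, 6 of 22 were higher and 2 lower, with a median of 0.33. Of the testicans, Spock1 and Spock2 rose, by 3.39 and 0.56, while Spock3 fell by 1.89. Spock3 had 3.66, 1.67, 4.55 and 3.74 CPM in Cartpt-positive cells, against 13.1, 12.2, 14.9 and 13.8 CPM in Cartpt-low cells. Sdc4, a syndecan, rose by 1.57, Lamb1, a laminin chain, by 0.90, and Nptxr, the neuronal pentraxin receptor, by 0.83. Snap25, a SNARE protein of granule fusion, rose by 0.71 (122 to 135 CPM in Cartpt-positive cells and 80.7 to 88.7 CPM in Cartpt-low cells), in a list of 27 exocytosis genes of which 2 were higher (Snap25 and Doc2b) and 3 lower (Stx1a, Cacna1c and Cacna1g); DESeq2 called 3.

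Of 21 growth factor and binding protein genes, 6 were higher and 5 lower, beside 3.17% and 2.9% of all genes, but DESeq2 called 4 of them. Igfbp3, Mdk, Hbegf and Angpt1 lost their calls with DESeq2 and in several other settings. Ptn and Igfbp4, an IGF-binding protein, were among the higher genes. Igfbp4 had 19.9, 42.8, 22.2 and 30.5 CPM in Cartpt-positive cells, against 10.3, 21.9, 11.4 and 9.86 CPM in Cartpt-low cells, a log2 fold change of 1.22. Igfbp3 rested on the anterior library, with 35.1 CPM in its Cartpt-positive cells; without that library its fold change was 0.11. Igf1 had 25.1, 25.5, 13.1 and 11.8 CPM in Cartpt-positive cells, against 54.4, 59.1, 44.7 and 44.2 CPM in Cartpt-low cells; insulin-like growth factor 1 fell by 1.31 (SE 0.13, adjusted p = 6.74e-06) and its ranges did not overlap.

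Apart from markers of other cell types, the largest falls of genes that reached 50 CPM were those of a keratin, Krt25, of Mlf1 and of a protease, Klk1; Dlk1, abundant in growth hormone cells and described with their markers, fell further. Klk1 had 223, 123, 136 and 152 CPM in Cartpt-positive cells, against 729.7, 636, 648 and 663 CPM in Cartpt-low cells; tissue kallikrein, a serine protease, fell by 1.96 (SE 0.07, adjusted p = 4.26e-11). Krt25 had 16.8, 8.88, 8.54 and 8.73 CPM in Cartpt-positive cells, against 57.2, 55.3, 53.4 and 53.4 CPM in Cartpt-low cells, and this keratin fell by 2.15 (SE 0.13, adjusted p = 3.26e-08). Mlf1 had 12.04, 13.3, 13.7 and 8.73 CPM in Cartpt-positive cells, against 55.99, 52.3, 54.5 and 56.4 CPM in Cartpt-low cells; this gene, named for myeloid leukemia factor, fell by 2.14 (SE 0.11, adjusted p = 5.28e-09). S100g had 261, 251, 77.99 and 20.6 CPM in Cartpt-positive cells, against 565, 296, 305 and 342 CPM in Cartpt-low cells. Cartpt-positive cells of the whole-gland lanes held the lowest values, and this calcium-binding protein, calbindin-D9k, fell by 1.60 (SE 0.23, adjusted p = 2.68e-04); the call was lost with DESeq2, without the block and without the anterior library. Ispd, an enzyme of dystroglycan glycosylation, fell by 1.49, Txnip, which binds thioredoxin, by 1.11, Eno3, an enolase of muscle, by 1.09, and AABR07040887.1, which has no annotation here, by 1.38. The ranges of these last 4 genes did not overlap.

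Immediate early genes, which activity, growth factors and tissue dispersal switch on within minutes, fell in part: of 18 in the list, 9 fell and 1 rose, with a median log2 fold change of -0.61 beside -0.01 over all genes, where 2.9% were lower; DESeq2 called 8. Junb had 882, 946, 663 and 722 CPM in Cartpt-positive cells, against 1283, 1910.4, 1043 and 1040.3 CPM in Cartpt-low cells; Junb, a subunit of AP-1, fell by 0.56 (SE 0.05, adjusted p = 2.23e-06). Btg2 had 435, 620.2, 417 and 473 CPM in Cartpt-positive cells, against 823, 1516, 667 and 701 CPM in Cartpt-low cells; this antiproliferative gene fell by 0.75 (SE 0.07, adjusted p = 6.41e-06). Both states had their highest values in the posterior library, so the states were compared within libraries, and Junb and Btg2 were lower in Cartpt-positive cells in 4 of 4. Egr1, a zinc finger factor, fell by 0.63 and Fosb, of the Fos family, by 0.69. Without the block the calls of Junb, Egr1 and Nr4a1 were lost, with fold changes of -0.57, -0.62 and -0.61. The part of dispersal in these levels was not tested.

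Of 24 targets of cyclic AMP and CREB, 10 fell, 2 rose (Vgf and Pde4b) and 12 were not called, beside 2.9% lower and 3.17% higher among all genes. DESeq2 called 8 of the list. Pde4b lost its call with DESeq2 (0.64), without the block (0.63) and without the anterior or the posterior library, among other settings. The median was -0.36, and Fosb, Atf3 and Nr4a1 were among the falls and also stood in the list of immediate early genes. Nr4a2 had 58.4, 68.3, 43.8 and 53.6 CPM in Cartpt-positive cells, against 121, 208, 98.9 and 110.1 CPM in Cartpt-low cells, a fall of 1.09 (SE 0.08, adjusted p = 3.90e-07). Crem, a repressor of the same pathway, fell by 0.73, Rgs2, which damps G protein signals, by 0.94, and Creb3l1, a factor anchored in the endoplasmic reticulum, by 1.05. Gadd45b had 57.9, 78.3, 102 and 59.8 CPM in Cartpt-positive cells, against 181, 269.7, 160.3 and 159 CPM in Cartpt-low cells; this stress-induced gene fell by 1.26 (SE 0.12, adjusted p = 4.12e-06).

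Most hormone receptor genes were not called, and a few fell. Of 15 steroid and thyroid hormone receptor genes, 3 fell and 0 rose, beside 2.9% lower and 3.17% higher among all genes. Esr1 and Rara were among the falls, and DESeq2 called 1. The most abundant of the list, the thyroid hormone receptor genes Thrb and Thra, had fold changes of -0.13 and -0.26 and were not called. Esr1 had 9.42, 8.33, 3.98 and 5.61 CPM in Cartpt-positive cells, against 14.7, 11.4, 10.3 and 11.8 CPM in Cartpt-low cells; estrogen receptor alpha fell by 0.74 (SE 0.18, adjusted p = 0.0155), a call lost with DESeq2 (-0.78), without the block (-0.69), after thinning, and without the anterior or the posterior library. Rara, a retinoic acid receptor, fell by 0.56 with the same kind of losses. Of 19 estrogen-responsive genes, 3 rose (Cited4, Ccnd1 and Ptn) and 5 fell (Gal, Greb1, Igf1, Kcnk1 and Rasd1), and DESeq2 called 6. Greb1 lost its call with DESeq2 (-0.88), without the block (-0.72) and when any single library was left out. Of 25 receptors for hypothalamic and local signals, 2 fell and 0 rose, which is 8% called and near the 6.07% of all genes. The falls were those of Drd4, a dopamine receptor, by 1.52, and of the gonadotroph gene Gnrhr. Agtr1b, an angiotensin receptor and the most abundant of this list, had a fold change of 0.40 and was not called. Drd4 had 8.64, 6.11, 5.12 and 3.12 CPM in Cartpt-positive cells, against 17.5, 17.9, 21.7 and 21.6 CPM in Cartpt-low cells.

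In the list of lactotroph identity genes, 1 of 22 rose and 3 fell, beside 3.17% and 2.9% of all genes, and DESeq2 called 2. The homeobox gene Six6, the most abundant member not used by the rule, had a fold change of 0.18 and was not called. Etv1 had 78.3, 102, 83.1 and 79.2 CPM in Cartpt-positive cells, against 35.2, 41.8, 33.2 and 34.2 CPM in Cartpt-low cells; this ETS family factor rose by 1.31 (SE 0.08, adjusted p = 4.63e-08). Lhx3, a LIM factor of the whole anterior lobe, fell by 0.61, a call lost with DESeq2, beside Esr1 and Nr4a1. Of 23 sodium and potassium channel genes, 3 rose and 2 fell, beside the same shares of all genes, but DESeq2 called 1 of them. Among 24 genes of the unfolded protein response, 19 of the cell cycle and 24 nuclear genes of oxidative phosphorylation, edgeR called 0, with medians of 0.12, 0.06 and 0.17; 3, 2 and 6 of them had an adjusted p under 0.05 without reaching the size, 10, 4 and 14 had an unadjusted p under 0.05, and DESeq2 called 0, 0 and 0.

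**Figure D3:**
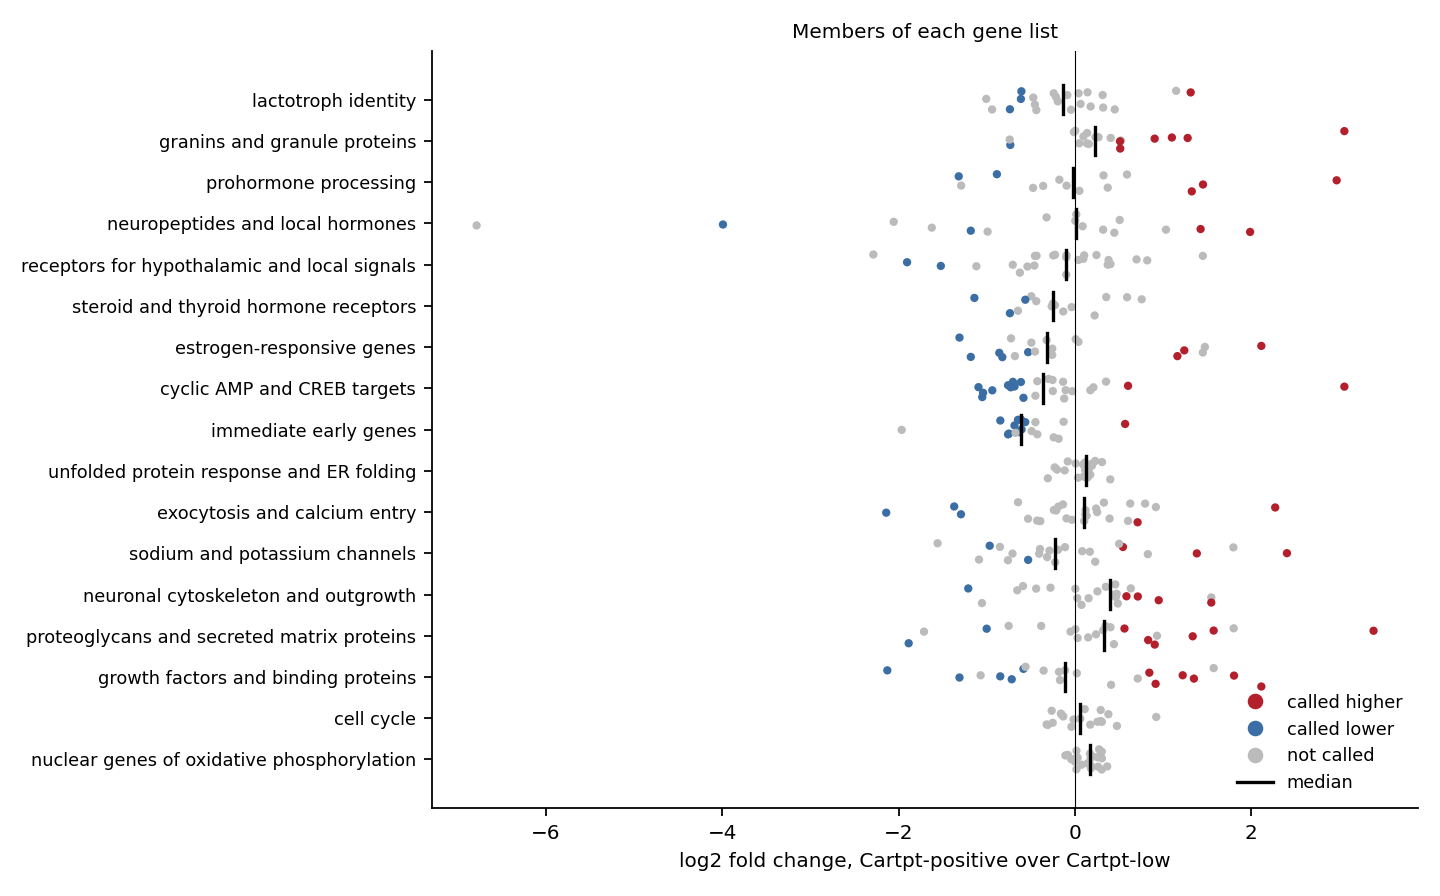
Log2 fold change, Cartpt-positive over Cartpt-low, of the tested members of 17 gene lists, with called genes in color and the median of each list as a black bar; points are spread within a row for legibility only. Granin, neuronal and proteoglycan lists have medians of 0.23, 0.39 and 0.33, and immediate early genes and cyclic AMP targets have medians of -0.61 and -0.36.

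Markers of other cell types were checked gene by gene. In the fibroblast and pericyte list, 4 of 5 tested genes were called higher, but Dcn alone carried the level. Dcn had 329, 453, 377 and 419 CPM in Cartpt-positive cells, against 20.1, 34.5, 18.96 and 20.3 CPM in Cartpt-low cells; decorin, a small proteoglycan of connective tissue, rose by 4.22 (SE 0.09, adjusted p = 1.06e-13). Dcn was found in 411 of 509 Cartpt-positive cells (80.7%), against 11.6% of Cartpt-low cells, 27.1% of Gh1-high cells and 4.24% of hormone-poor S100b-positive cells; their median depths are given above. The defining collagen of fibroblasts, Col1a2, had 0 UMIs in both states. Col1a1 had 15 UMIs in 3 Cartpt-positive cells (1.67 CPM) and 79 UMIs in 31 Cartpt-low cells (0.760 CPM), and was not called. Pdgfrb had 19 UMIs in 3 Cartpt-positive cells (2.12 CPM) and 20 UMIs in 11 Cartpt-low cells (0.192 CPM). Acta2 had 9 UMIs in 2 Cartpt-positive cells and 5 UMIs in 5 Cartpt-low cells. Pdgfrb and Acta2 were not tested. The levels of Col1a1, Pdgfrb and Acta2 were thus higher in Cartpt-positive cells, but rested on few cells. Dcn rose by 4.37 when cells of clusters led by other cell types were left out and by 4.25 without doublets. Lum had 31.7, 33.3, 52.4 and 13.1 CPM in Cartpt-positive cells, against 1.65, 6.27, 0.288 and 0.758 CPM in Cartpt-low cells, and lumican was seen in 45 Cartpt-positive cells (8.84%) and 43 Cartpt-low cells (0.718%). Rgs5 and Col3a1 came from few cells: 5 Cartpt-positive cells held Rgs5, with 144 of the 239 UMIs in 1 cell, and 8 held Col3a1. The summed level of this list was 429.8 to 489.7 CPM in Cartpt-positive cells and 22.1 to 46.00 CPM in Cartpt-low cells.

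Macrophage markers were uneven between libraries. Of 7 tested, 4 were called higher (C1qa, C1qb, C1qc and Cd74), and 10 to 12 Cartpt-positive cells held a C1q UMI. Cd74 had 56.02, 9.99, 2.85 and 156 CPM in Cartpt-positive cells, against 51.04, 4.64, 25.4 and 27.3 CPM in Cartpt-low cells. Its fold change was -0.33 without whole-gland lane 2, and that of C1qa was -0.45 without the clusters led by other cell types. Cd3e and S100a8 had 0 UMIs in both states, and whether they were counted in other cells was not examined. The summed list stood at 5.12 to 358 CPM in Cartpt-positive cells and 34.9 to 103 CPM in Cartpt-low cells, and its part in the other results was not tested. Of 7 gonadotroph genes tested, 4 were called lower (Lhb, Fshb, Gnrhr and Tgfbr3l). Of the 86 Cartpt-positive cells with an Lhb UMI, 1 held 269 UMIs. Without the clusters led by other cell types, Lhb had a fold change of 0.23 and Fshb of -0.45, and neither was called. Cga, shared with thyrotrophs, had 849.9 CPM in Cartpt-positive cells and 725 CPM in Cartpt-low cells and was not called. Of 3 somatotroph markers tested besides Gh1, 2 were lower. Dlk1 had 74.9, 17.8, 50.1 and 39.3 CPM in Cartpt-positive cells, against 302, 291, 252 and 285 CPM in Cartpt-low cells; Dlk1, a transmembrane protein abundant in growth hormone cells, fell by 2.41 (SE 0.08, adjusted p = 1.44e-11). It was found in 26.1% of Cartpt-positive cells and 71.5% of Cartpt-low cells. Ghrhr, which defines growth hormone cells, had 0 UMIs in Cartpt-positive cells and 30 in Cartpt-low cells (0.289 CPM). These were too few to be tested, and no difference in Ghrhr is read from them. Rbp4, a retinol carrier, fell by 1.24.

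For the remaining lists, 3 of 10 folliculostellate markers and 1 of 6 pituicyte markers were higher, beside 3.17% of all genes. Of 4 corticotroph and melanotroph markers tested besides Pomc, 1 was higher, Pcsk2, described above with the processing enzymes. Without Pomc, this list summed to 17.3 to 33.7 CPM in Cartpt-positive cells and 4.70 to 7.09 CPM in Cartpt-low cells. None of the endothelial, Schwann, thyrotroph and red blood cell markers was called by edgeR. Of these, 4, 1, 2 and 0 had an unadjusted p under 0.05, and DESeq2 called 0, 0, 0 and 0. Folliculostellate markers summed to 54.97 to 121 CPM in Cartpt-positive cells and 70.01 to 103 CPM in Cartpt-low cells, endothelial markers to 3.74 to 39.5 CPM in Cartpt-positive cells and 9.39 to 16.00 CPM in Cartpt-low cells, and pituicyte markers to 5.50 to 54.4 CPM in Cartpt-positive cells and 5.16 to 27.7 CPM in Cartpt-low cells. Ptn and Timp1 are far more abundant in hormone-poor S100b-positive cells (1779 to 3183 and 660.1 to 2634 CPM over the 4 libraries), and Pon2 was at 241 to 250.4 CPM there. Cartpt-positive cells had 57.9 to 88.5 CPM of Nrgn, against 63.2, 17.9, 70.3 and 72.0 CPM in those cells, of which 23.4% held a Nrgn UMI. Vgf and Spock1 were at 0.791 to 2.53 and 0.161 to 0.674 CPM in hormone-poor S100b-positive cells, and at 7.55 to 11.5 and 1.30 to 2.10 CPM in Gh1-high cells. Cells high in Lhb and Fshb had 125 to 181 CPM of Vgf, between the 2 states, and far more Scg2 (11956 to 14187 CPM) and Chga (5553 to 8036 CPM) than Cartpt-positive cells. Spock1 was at 17.01 to 55.6 CPM in Pomc-high cells, above Cartpt-low cells. Gh1-high cells had 299 to 335 CPM of Arhgap36, more than Cartpt-positive cells, and 117 to 124 CPM of Thy1. These genes were thus also found in other pituitary cells. Without the clusters led by other cell types, Ptn rose by 3.08, Timp1 by 2.31 and Pon2 by 3.62.

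Levels of the genes that rose varied in different ways with the Cartpt content of the cell. Prl-high cells were divided into 6 bands, from 0 Cartpt UMIs through above 0 to 0.03%, 0.03 to 0.1%, 0.1 to 0.3%, 0.3 to 1% and at least 1%, with 5505, 481, 126, 123, 136 and 124 cells. Vgf stood at 39.8, 138, 297, 360.4, 428 and 479 CPM over these bands, with most of its climb below 0.1%. Chgb behaved alike, at 4752, 6358, 9544, 11272, 11689.7 and 12873 CPM. Nrgn stood at 0.991, 3.08, 9.86, 19.1, 67.2 and 210.0 CPM, so that its high level was found in the upper bands. Ptn was at 37.7, 56.1, 57.4, 74.3, 208 and 343 CPM and was likewise high above 0.3%. Dcn, at 15.7, 73.4, 186, 315, 403 and 661 CPM, and Pon2, at 30.8, 65.6, 150.0, 259, 394 and 701 CPM, were higher in each successive band. These values are descriptions, since the bands are cut from Cartpt itself and the points share libraries.

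Genes that were lower did not share 1 course either. Dlk1 was at 291, 193, 76.3, 52.6, 38.6 and 39.7 CPM and Klk1 at 694, 518, 273, 187, 119 and 104 CPM, both low from the first band above the limit. Gal, at 941, 750.5, 312, 323, 308 and 423 CPM, was low in every band above the limit. Junb, at 1198, 1348, 1209.9, 800.0, 794 and 423 CPM, was lower from 0.1% upward. Prl itself took 485174, 480802, 494313, 485361, 460467 and 414359 CPM, and was lowest in cells with at least 1% Cartpt.

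**Figure D4:**
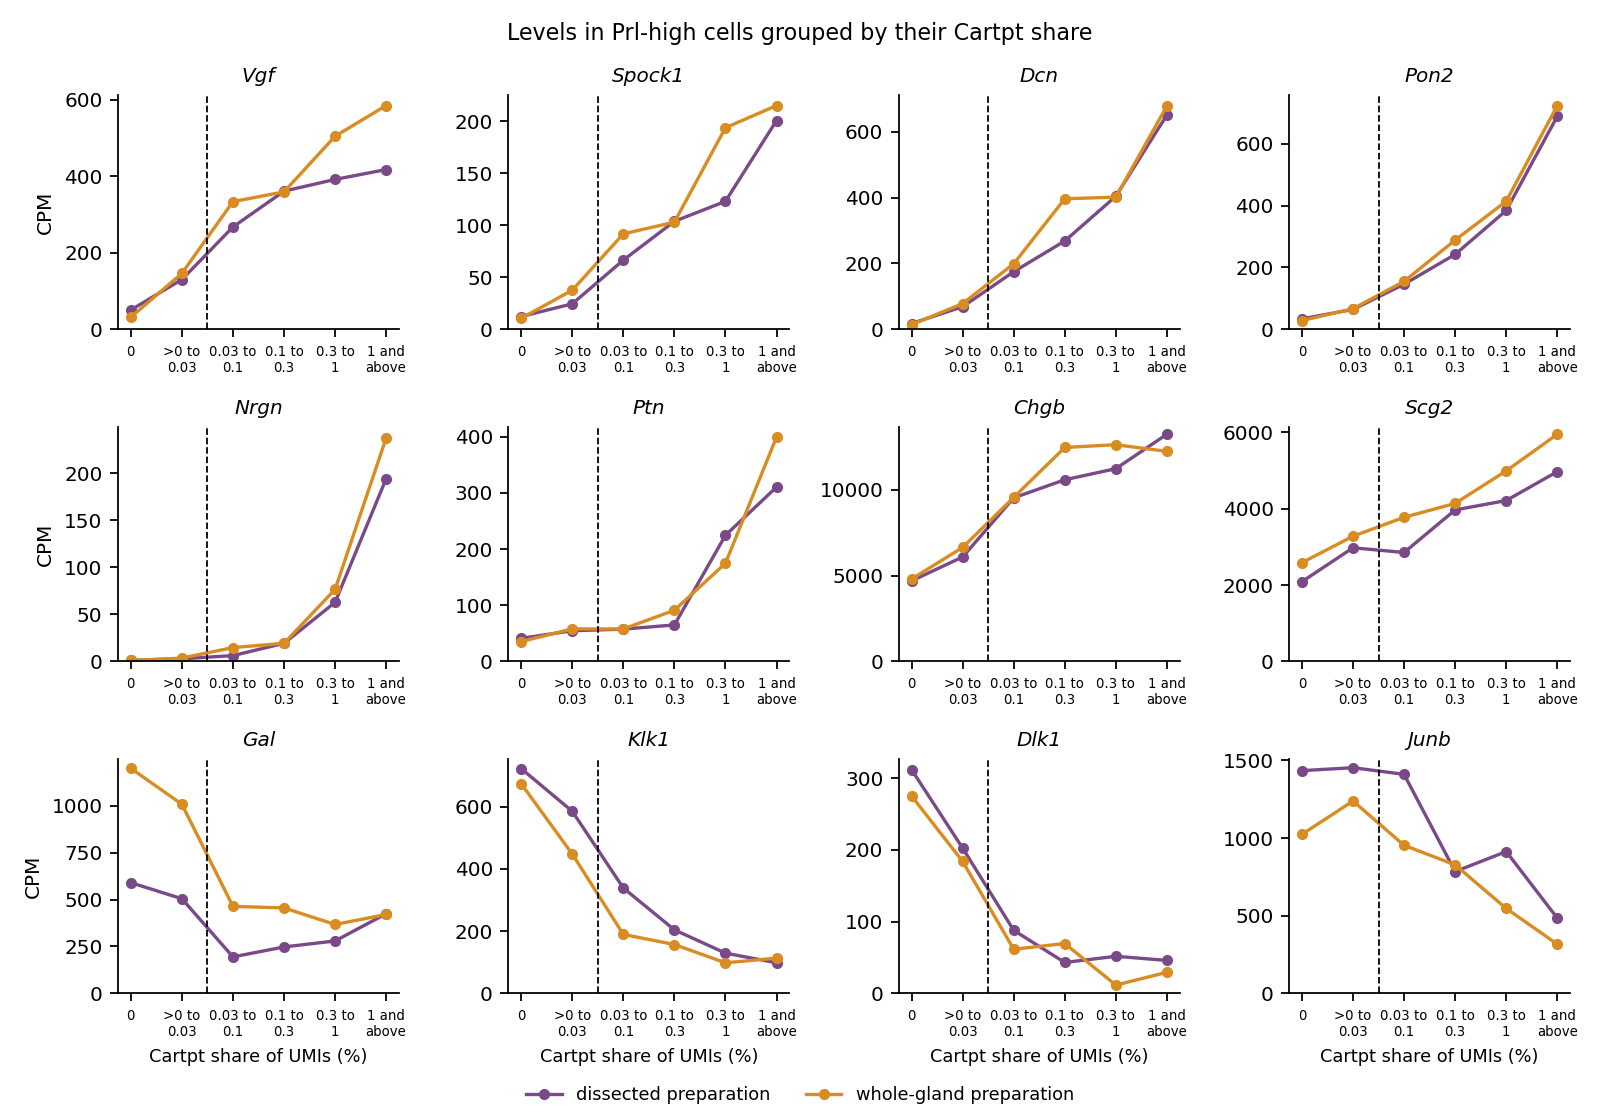
CPM of 12 genes in Prl-high cells grouped by the Cartpt share of their UMIs, for the dissected and the whole-gland preparation; the dashed line marks the limit of 0.03%. Both preparations follow the same course for Vgf, Dcn, Pon2, Nrgn and Ptn, and Nrgn and Ptn are highest in the upper bands while Dlk1 and Klk1 are low in all bands above the limit.

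The genes that rose were also counted cell by cell. At least 3 of the 5 genes Vgf, Spock1, Dcn, Nrgn and Pon2 were found in 80.9% of Cartpt-positive cells and 8.80% of Cartpt-low cells. Thinned to 5000 UMIs per cell, which left 469 and 5732 cells, the shares were 57.1% of Cartpt-positive cells and 1.87% of Cartpt-low cells, beside 0% of 3689 Gh1-high cells and 0.440% of 2271 hormone-poor S100b-positive cells. None of the 5 was found in 3.20% of thinned Cartpt-positive cells, against 72.98% of thinned Cartpt-low cells. Vgf alone was found in 74.2% of thinned Cartpt-positive cells and 12.1% of thinned Cartpt-low cells, and Nrgn in 19.6% of thinned Cartpt-positive cells and 0.384% of thinned Cartpt-low cells. Since the 5 genes were chosen for being higher in Cartpt-positive cells, these shares do not show whether they occur together more often within those cells.

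Cartpt-positive cells lay close to each other when Cartpt, Prl, Gh1 and Pomc were left out. Among the 15 nearest neighbours of a Cartpt-positive cell in 30 principal components, a mean of 54.1% were Cartpt-positive, against 2.57% for a Cartpt-low cell; 7.84% of all Prl-high cells were. By library the mean for Cartpt-positive cells was 53.5%, 54.0%, 52.4% and 57.5%. Of 12 clusters made from these components, cluster 1 held 388 of the 509 cells (76.2%), and the genes that led it were among those described above (Dcn, Vgf, Pon2, Spock1 and Nrgn). The remaining Cartpt-positive cells were scattered, with 28 in a cluster of shallow cells (median 8323 UMIs) and 8 in a cluster of dividing cells. Another 28 were in a cluster whose leading genes began with Tshb, a thyrotroph marker, and also included Hbb, Junb, Btg2 and Nr4a1. A further 15, 14, 5, 3 and 1 were in 5 clusters led by genes of other cell types. The Tshb cluster was not counted among these 5 and stayed in when they were left out. The others lay in clusters led by S100g (9), Mzb1 and Gal (6) and a cluster with Mlf1 and Txnip among its leading genes (4). Hba-a3 was also a leading gene of the S100g cluster, and Hba-a2 of the Mlf1 cluster. Being made from the same cells, clusters are a description and were not tested.

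Cluster 1 was not made up of Cartpt-positive cells alone. It held 777 cells, of which 389 were Cartpt-low and 271 of these had 0 Cartpt UMIs at a median depth of 19831 UMIs for the 389. These Cartpt-low cells had 290.2 CPM of Vgf, 152 CPM of Dcn, 10574 CPM of Chgb and 66.6 CPM of Spock1, against 29.4, 10.5, 4439.9 and 8.81 CPM in Cartpt-low cells outside it. Their Nrgn was at 3.41 CPM, against 1.01 CPM outside, and their Ptn at 40.8 CPM, near the 39.3 CPM outside. Cartpt-positive cells of the cluster had 83.9 CPM of Nrgn and 159.5 CPM of Ptn. The 121 Cartpt-positive cells outside the cluster had 231 CPM of Vgf, 189 CPM of Dcn, 26.02 CPM of Nrgn, 179 CPM of Ptn, 322 CPM of Timp1, 2686 CPM of Cartpt and 1410.0 CPM of Junb. The 388 inside it had 434 CPM of Vgf, 436 CPM of Dcn, 297 CPM of Timp1, 7776 CPM of Cartpt and 651 CPM of Junb. Cartpt-positive cells outside the cluster had less Cartpt, Vgf, Dcn and Nrgn and more Junb, while their Ptn and Timp1 were no lower. Vgf, Dcn, Spock1 and Nrgn were among the genes that led the cluster. Their differences between cells inside and outside it thus follow in part from the clustering, in both states. Of the 121 cells outside, 15 lay in a cluster led by Igfbp2. Another 14 lay in a cluster with S100b among its leading genes. The part of these cells in the Ptn and Timp1 levels was not tested.

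**Figure D5:**
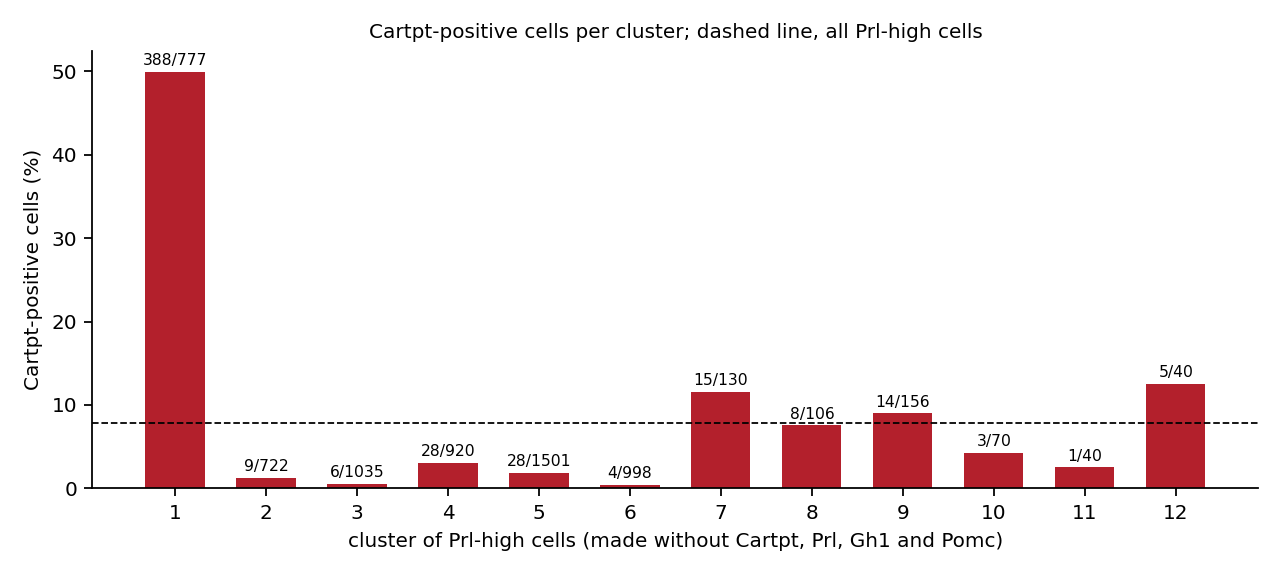
Percentage of Cartpt-positive cells in each of 12 clusters of Prl-high cells, with the number of Cartpt-positive cells over all cells above each bar and the share over all Prl-high cells (7.84%) dashed. Cluster 1 stands out with 388 of 777 cells.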

How the data were processed

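Messenger RNA was measured in single pituitary cells in 4 droplet libraries. The deposited matrix holds counts, whole UMI counts per gene and barcode, made by the authors with Cell Ranger 3.1, per the submitters' processing notes; genome build, annotation and any equalizing of reads between libraries are not given in the sources used here. The other deposited file used, the barcode list, ties each barcode to its library by an ending that, per the labels, marks the sample.

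A barcode was kept if it held 1000 or more UMIs from 500 or more genes and no more than 20% mitochondrial UMIs, which left 20381 of 32455. The members and gene lists were chosen with earlier results of these data known. UMIs were summed per state and preparation into 4 sums, from 3361152 to 58966056 UMIs, and tested with edgeR 4.0.16 (R 4.3.3; TMM, filterByExpr, preparation as block, 1 residual degree of freedom, Benjamini-Hochberg over 14290 genes). The preparation pairs the sums because both states come from the same glands. The SE is the log2 fold change divided by the square root of F. With 2 pools the test measures only how far the difference between states varied between these preparations. To the 1 residual degree of freedom edgeR added 13.97 prior degrees of freedom from the dispersion of all genes. The SE and p-values therefore rest mostly on spread shared across genes. On counts simulated for this comparison, the test called 44% of changes of 1.5 times, 92% of 2 times and 100% of 4 times, and 4 of 13700 unchanged genes that were tested. Changes were placed only in genes above a minimum expected count. Both preparations were given the same mean levels, with the dispersion taken from the main fit. These rates therefore do not cover changes in genes with few counts or differences in level between the preparations.

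Genes named are, in each direction, the 12 strongest called changes that reach 50 CPM in the higher state and the same direction in 4 libraries, without markers of other cell types; the markers Vgf, Olfm1, Chgb and Spock1; and from each list the 3 most abundant members and up to 6 called members. Rab3a, Crem, Nptxr, Drd2, Greb1, Pde4b, Mdk, Hbegf, Angpt1 and the genes of the promoter search were chosen after their values were seen. Not every gene that the rule names is reported here. Scrublet scores above 0.25 marked doublets per library. Principal components (30) of 2000 variable genes and Leiden clusters (resolution 0.5, scanpy 1.11.5) left out Cartpt, Prl, Gh1 and Pomc. Alternatives were DESeq2 1.42.0, other normalization, filters, blocks, limits and reference cells, thinning, and leaving out each library. Shares carry exact 95% intervals, which cover counting error only. Promoter windows are RefSeq's (GRCr8), matched by symbol.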

Additional observations from a re-analysis of the deposited data

How the results depend on the processing

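The main test called 453 genes higher and 414 lower. With DESeq2 the counts were 225 and 128, of which 222 and 128 were also called in the main test. With no low-count filter 624 were lower. Without the replicate block, which pairs the states within a preparation, 269 were lower and 366 higher. After thinning to 5000 UMIs, 298 were higher and 255 lower. Leaving out single libraries gave 283 to 491 higher and 217 to 445 lower genes, with the fewest without the anterior library. The share of Cartpt-positive cells, 7.84% in all, was 5.90% at a limit of 0.1% and 6.99% with Prl at 40% or more. Of the 24 largest changes, 23 were called under every setting that could be fitted, S100g being the exception. Of 87 called genes in the text or lists examined, 53 kept their call under every setting, and 4 changed sign in some setting. Leaving out the clusters led by other cell types, an alternative added after the data were seen, gave Lhb 0.23 and C1qa -0.45; leaving out single libraries put Col3a1 between -1.08 and 3.11 and Cd74 between -0.33 and 1.53. The cause of these changes was not tested, and neither was the part of the fewer cells or genes that some settings keep. Genes under about 10 CPM, such as Esr1 and Cadps2, rest on few UMIs in the smaller sums.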
